A study of Mus musculus with 4 samples.

Results

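The nuclear genes of the oxidative phosphorylation complexes were compared between the stomachs of WT and *c-Myc* transgenic mice. Of 46095 gene symbols counted, 94 had a name that begins with *Nduf* (assembly factors named *Ndufaf* left out), *Uqcr*, *Atp5* or *Cox4* to *Cox8*, or were *Sdha* to *Sdhd*. By complex these are 38 symbols of complex I, 4 of complex II, 9 of complex III, 18 of complex IV and 25 of complex V. Among them, 9 rows are pseudogenes and 4 names (*Cox7a2l*, *Ndufa4l2*, *Atp5s* and *Atp5sl*) are not those of subunits, which leaves 81.

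Gastric tissue was taken at 12 weeks of age from 2 WT samples and 2 MYC-KI samples on the C57BL/6 strain. The MYC-KI samples carry the genotype *Atp4b-cre;MycOE*. In these mice Cre recombinase driven by the *Atp4b* promoter, which is active in acid-secreting parietal cells and their progenitors, turns on a human *c-Myc* transgene from a single floxed allele. The WT samples are labelled wild type, and the study's methods give its controls as *Myc fl/fl* littermates, which carry the floxed transgene without Cre. All cell types of the tissue contribute to each sample. A lower level can therefore come from fewer cells of a type or from less RNA per cell, and these cannot be told apart. The labels do not tie samples to individual animals, so the p-values measure the spread between these samples.

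The oxidative phosphorylation system sits in the inner mitochondrial membrane. Complex I takes electrons from NADH and complex II from succinate, ubiquinone carries them to complex III, and cytochrome c carries them to complex IV, which reduces oxygen. Complexes I, III and IV pump protons, and complex V, the ATP synthase, uses the returning protons to make ATP. Complexes I, III, IV and V combine nuclear subunits with subunits encoded in mitochondrial DNA, while complex II is wholly nuclear. Parietal cells are rich in mitochondria, which supply the ATP that the gastric proton pump consumes.

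The pairing of names and counts was settled first. In the deposited table the counts of both MYC-KI columns, taken in row order, follow the gene names sorted by character code, whereas the WT counts follow the order in which the names are listed. Across the 94 members, Pearson's r between the genotypes of the mean log2(count + 1) was 0.181 as deposited and 0.996 after the MYC-KI counts were assigned to the names in character-code order. These are correlations across genes, which are not independent replicates. As deposited, 10 of the 77 members with at least 100 counts in both WT samples had 0 counts in both MYC-KI samples, and 44 members were called lower and 23 higher by the rule given below, against 84.1% of all tested genes called. The 2 orders put 18 members in the same row, and these are the *Cox4* to *Cox8* genes, so that all values of complex IV are the same counts in both tables. The values below are from the re-sorted table.

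Counts per sample ranged from 30260305 to 41463647, and the members held 1.23% and 1.19% of them in the WT samples and 1.16% in each MYC-KI sample. The tissue label was met in the WT samples by the parietal proton pump genes *Atp4a* and *Atp4b*, at 7684 and 7949 and at 2610 and 2490 normalized CPM, the count of a gene over a library size corrected by TMM factors. In MYC-KI they were at 138.5 and 187.1, and at 38.4 and 51.7. *Xist*, transcribed from the inactive X chromosome, had 17846 counts in WT replicate 2 and 85 to 201 in the other samples, and the Y-linked *Ddx3y* had 5 counts there and 1861 to 2623 in the others. WT replicate 2 thus differs in the sex these genes mark from WT replicate 1 and from both MYC-KI samples. Markers of other cell types are given at the end.

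Of the 94 members, 83 passed edgeR's filter on low counts. The other 11 were 7 pseudogene rows and *Cox7b2*, *Cox8b*, *Cox8c* and *Ndufa7*, none with more than 40 counts over the 4 samples. In edgeR's quasi-likelihood test with Benjamini-Hochberg adjustment over all 17643 tested genes, calls required an adjusted p under 0.05 with a log2 fold change beyond 0.585 in either direction. By this rule 3 members fell and 0 rose (3.61% of the 83), against 10.7% of all tested genes called, 5.08% lower and 5.65% higher. At an unadjusted p under 0.05, 42 members were lower and 1 was higher, against 16.4% and 17.7% of all tested genes, and DESeq2 with both thresholds called 5 lower and 0 higher, against 17.2% of the 18755 genes it gave an adjusted p. The members called lower were *Cox7a1*, *Atp5g1* and *Ndufa11*, and they were also the ones called without the filter on low counts, against 9.79% of all genes then tested. A fit without 1 of the WT samples leaves 1 sample in that group, so its test cannot decide whether these calls hold. With 1 sample left out, the log2 fold change lay between -2.79 and -2.39 for *Cox7a1*. For *Atp5g1* it lay between -0.74 and -0.57, and for *Ndufa11* between -0.64 and -0.57.

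The members differed from WT by little and mostly in 1 direction. Without the fold threshold, 21 members fell and 1, *Cox7a2l*, rose, which is 25.3% lower against 5.91% of all tested genes lower and 6.98% higher. In 64 members (77.1%) every MYC-KI sample was below every WT sample, against 31.5% of all tested genes, and in 5 every MYC-KI sample was above, against 33.3%. Among the 61 members with a mean log2 CPM of at least 5, 53 (86.9%) were lower without overlap, against 34.6% of tested genes at such levels. The median log2 fold change of the 83 was -0.26, which is 83.3% of the WT level, and that of all tested genes was 0.01. In 69 members (83.1%) it was below 0, against 49.1% of all tested genes. A fit without 1 sample leaves 1 sample in a group, so its test cannot show how far the count of 21 holds. In the 4 fits that each left out 1 sample the fitted values of all 21 stayed below 0, as did those of 66 of the 83.

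The size of the fall depends on how the samples are scaled to each other. In library size alone, without TMM factors, the median of all tested genes was 0.23 and that of the members -0.04. On this scale 48 of the 83 members were below 0, and 38 (45.8%) were lower without overlap, against 20% of all tested genes, while 21 were higher without overlap, against 48%. Of the 21 members that fell, all were below 0 on this scale and 5 had an adjusted p under 0.05. With both thresholds 1 member was called lower, *Cox7a1*, and 1 higher, *Cox7a2l*, against 17.1% of all tested genes. The distance between the members' median and that of all genes was -0.28 on each scale, with 69 of the 83 members below the median of all genes on both.

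**Figure D1:**
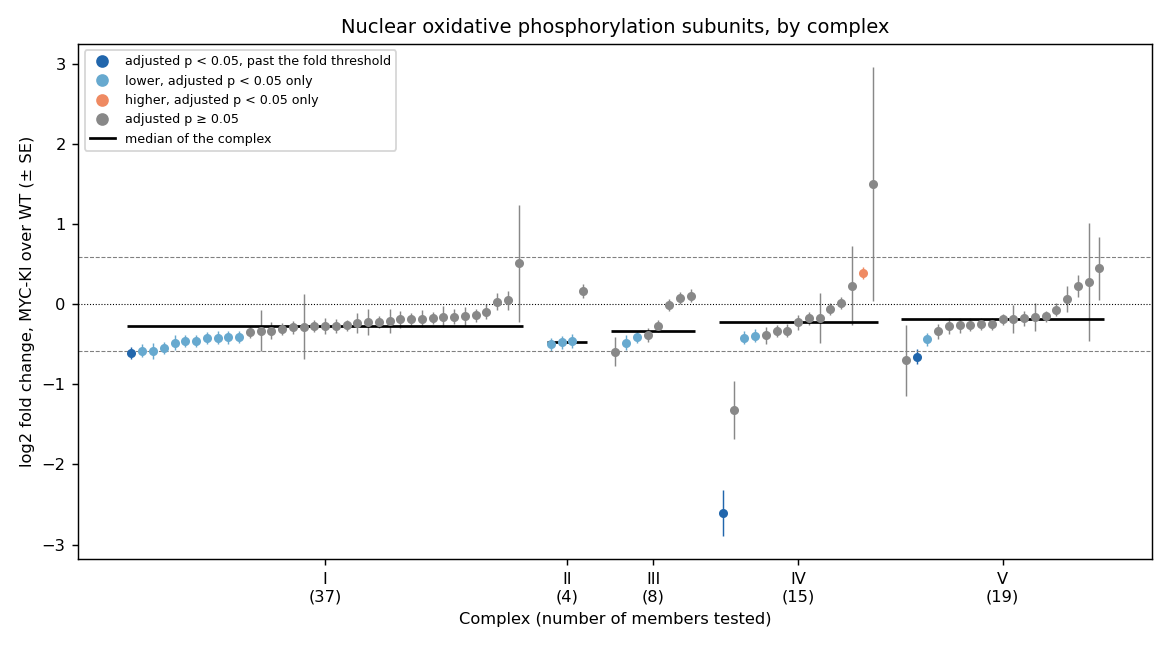
Fitted log2 fold change (MYC-KI over WT, y axis) with its SE for the 83 tested members, ordered within each complex, with the median of each complex as a bar and the fold threshold as dashed lines. Most points sit slightly below 0 with medians from -0.47 to -0.19, *Cox7a1* is far below the rest, and with library size in place of TMM factors all points move up by about the all-gene median of 0.23, which puts the median of complex V above 0.

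The 5 complexes were summed per sample in normalized CPM. The sum over all members was 13277 and 12856 in WT and 10701 and 10808 in MYC-KI, and the latter is 82.3% of WT (13067 ± 298 against 10755 ± 75.4, SD, n = 2). Complex I summed to 3189 and 3024 in WT and to 2433 and 2492 in MYC-KI, 79.3% of WT. Complex II summed to 1157 and 1134 in WT and to 942.7 and 897.6 in MYC-KI, 80.3% of WT. In each of these sums both MYC-KI samples lay below both WT samples. Complex III summed to 1146 and 1116 in WT and to 956.9 and 936.3 in MYC-KI, 83.7% of WT. Complex IV summed to 2008 and 1948 in WT and to 1700 and 1740 in MYC-KI, 87.0% of WT. Complex V summed to 5778 and 5635 in WT and to 4669 and 4743 in MYC-KI, 82.5% of WT. With TMM factors the groups did not overlap in any complex, while by library size they overlapped in complexes III and IV. In CPM by library size, without TMM factors, the sums were 96.0% of WT over all members, 92.5% for complex I, 93.8% for complex II, 97.7% for complex III and 96.2% for complex V, and that of complex IV turned to 101.5%. The turn of complex IV depends on *Cox7a2l*. Without pseudogene rows and names that are not subunits, the sums of complexes I to V were 79.1%, 80.3%, 83.7%, 83.4% and 82.3% of WT with TMM factors, and 92.3%, 93.8%, 97.7%, 97.3% and 96.0% by library size.

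The makeup of the members' own counts does not depend on the scaling between samples. Complex V held 43.5% and 43.8% of them in WT and 43.6% and 43.9% in MYC-KI. Complex I held 24.0% and 23.5% in WT and 22.7% and 23.1% in MYC-KI, and complex IV 15.1% in each WT sample and 15.9% and 16.1% in MYC-KI. The groups overlapped for complex V and did not for complexes I and IV. Among the counts of the subunits alone, without pseudogenes and names that are not subunits such as *Cox7a2l*, complex IV held 14.2% in each WT sample and 14.4% and 14.6% in MYC-KI. Complex II held 8.71% and 8.82% against 8.81% and 8.31%, and complex III 8.63% and 8.68% against 8.94% and 8.66%, both with overlap.

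**Figure D2:**
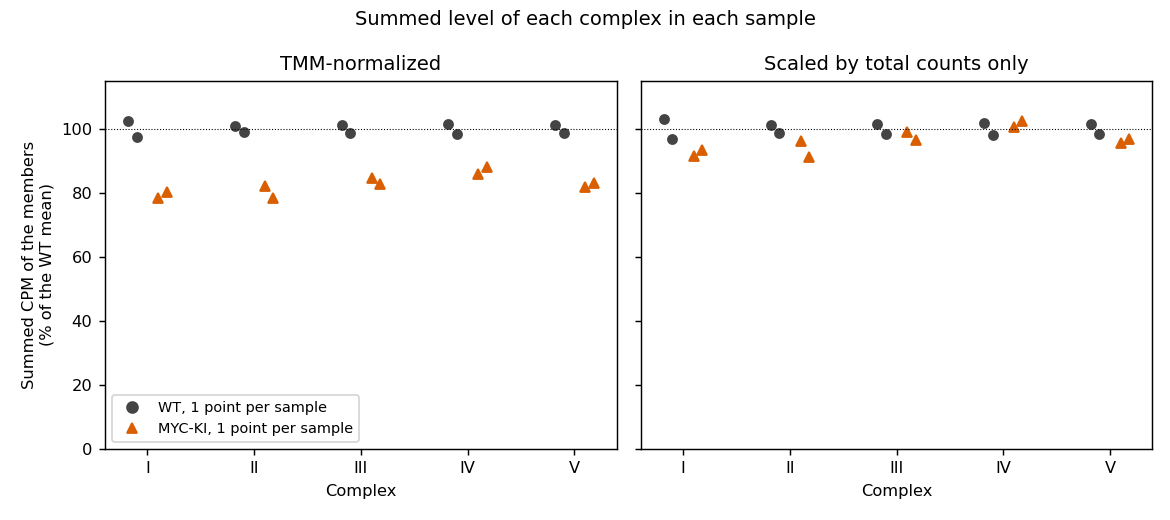
Summed normalized CPM of the members of each complex in each sample as a percent of the WT mean (y axis from 0), left with TMM factors and right by library size alone, 1 point per sample. With TMM factors both MYC-KI samples are below both WT samples in all 5 complexes, from 79.3% of WT in complex I to 87.0% in complex IV, which is 101.5% by library size. Without *Cox7a2l*, which is not a subunit, complex IV is at 83.4% and 97.3%, next to complex III at 83.7% and 97.7%.

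By complex, the share that fell without a fold threshold was 11 of 37 (29.7%) in complex I, 3 of 4 (75%) in complex II, 2 of 8 (25%) in complex III, 3 of 15 (20%) in complex IV and 2 of 19 (10.5%) in complex V, all above the 5.91% of all genes. The median log2 fold changes were -0.27, -0.47, -0.33, -0.23 and -0.19 for complexes I to V. The spread between replicates of each sample's median level gave an SD for the difference between a WT sample and a MYC-KI sample. For complexes I to V this SD was 0.069, 0.093, 0.072, 0.16 and 0.018. It is not an error of the median log2 fold changes, which compare groups of samples. The gene at the median level can also differ between samples. Without pseudogene rows and names that are not subunits the median of complex V was -0.24 and that of complex IV -0.28. The complexes were not tested against each other, since their genes are not replicates.

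Complex I, the NADH dehydrogenase, had 37 tested members, of which 32 (86.5%, against 31.5% of all tested genes) were lower without overlap and 0 were higher. By library size 17 (45.9%) were lower and 7 higher without overlap, against 20% and 48%. Its core is built around subunits that carry flavin and iron-sulfur clusters, and the 6 nuclear core genes given here were each lower in both MYC-KI samples than in both WT samples. By library size *Ndufs7* was above 0 and the other 5 below. Of the 6, *Ndufv1*, the flavin-binding subunit, fell from 206.0 ± 3.8 to 153.5 ± 1.9 normalized CPM (log2 -0.42, adjusted p = 0.0399). *Ndufs1*, the largest iron-sulfur subunit, had 203.8 and 183.5 in WT and 141.3 and 136.8 in MYC-KI, a log2 fold change of -0.48 (adjusted p = 0.0447). *Ndufs3*, which forms part of the peripheral arm, had 93.8 and 87.0 in WT and 66.2 and 69.1 in MYC-KI (log2 -0.42, adjusted p = 0.0476). These 3 passed the test. The log2 fold changes of the other 3 were -0.18 for *Ndufs7*, -0.34 for *Ndufs8* and -0.33 for *Ndufv2*, with adjusted p from 0.0555 to 0.183.

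Among the accessory subunits, *Ndufa11*, an inner-membrane subunit of complex I (chr17:56717767-56722141, plus strand of GRCm38), had 64.6 and 64.1 normalized CPM in WT and 41.2 and 43.2 in MYC-KI. The groups did not overlap, and the log2 fold change of -0.61 ± 0.08 (SE, adjusted p = 0.0260) passed both thresholds. Without MYC-KI replicate 1 it was -0.57 and not past the fold threshold, and by library size it was -0.38 (adjusted p = 0.0370). Of the exon bases of *Ndufa11*, 6.41% are shared with *Vmac* on the opposite strand. Named after their values were seen, *Ndufb9* (-0.58), *Ndufb8* (-0.55), *Ndufa6* (-0.46), *Ndufb10* (-0.46), *Ndufa13* (-0.41) and *Ndufb11* (-0.41) also fell without reaching the fold threshold, with adjusted p from 0.0274 to 0.0417, and all are accessory subunits. *Ndufa4*, first described in complex I and later placed with complex IV, fell by 0.58 on the log2 scale (adjusted p = 0.0376), from 143.8 and 125.6 to 89.8 and 90.7 normalized CPM. The highest fitted value in complex I belonged to its relative *Ndufa4l2*, at 0.51 (adjusted p = 0.668). It had 11.2 and 7.06 in WT and 4.95 and 21.1 in MYC-KI, so that its replicates differed by more than the groups, and it was -0.88 without MYC-KI replicate 2 and 1.20 without MYC-KI replicate 1.

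Complex II, the succinate dehydrogenase, also acts in the citric acid cycle, and its 4 genes did not move alike. *Sdha*, the flavoprotein that binds succinate, had 477.7 and 459.1 normalized CPM in WT and 336.7 and 337.1 in MYC-KI (log2 -0.48 ± 0.08, adjusted p = 0.0378). *Sdhb*, the iron-sulfur subunit, had 191.2 and 197.3 in WT and 141.0 and 134.0 in MYC-KI (log2 -0.50 ± 0.08, adjusted p = 0.0341). *Sdhc*, one of the membrane anchors, had 246.0 and 239.3 in WT and 185.6 and 168.2 in MYC-KI (log2 -0.46 ± 0.09, adjusted p = 0.0473). These 3 fell, with no overlap between the groups, and were below 0 by library size as well. *Sdhd*, the other membrane anchor, had 241.9 and 237.9 in WT and 279.5 and 258.3 in MYC-KI, above WT in both samples, with a log2 fold change of 0.16 ± 0.09 that did not pass the test (adjusted p = 0.255). Its value is outside the range of the other 3 on each scale.

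**Figure D3:**
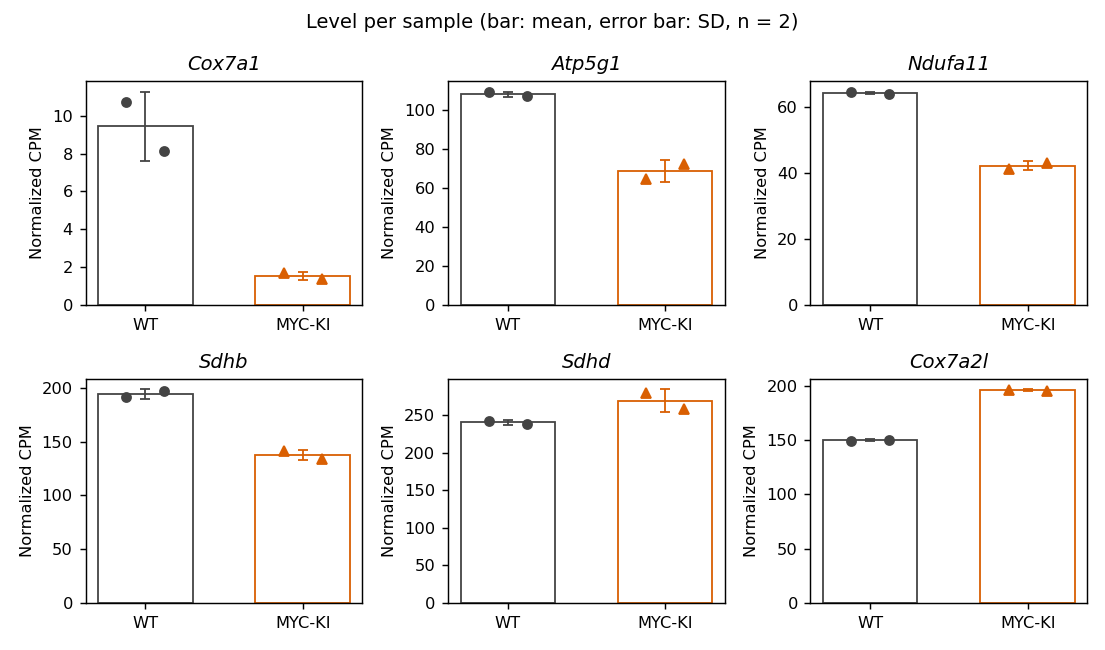
Normalized CPM per sample (points) with the mean and SD of 2 samples (bars and error bars, y axis from 0) for the 3 members called lower, for *Sdhb* and *Sdhd* of complex II and for *Cox7a2l*. The MYC-KI points of *Cox7a1* are 1.71 and 1.39 against 8.14 and 10.7 in WT, those of *Sdhb* and *Sdhd* go in opposite directions, and *Cox7a2l* is at 196.5 and 195.6 against 149.0 and 150.4.

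Complex III, the cytochrome bc1 complex, had 8 tested members, 5 (62.5%) lower without overlap and 2 higher, against 31.5% and 33.3% of all tested genes. By library size 5 were lower and 3 higher, against 20% and 48%. *Uqcrfs1*, the Rieske iron-sulfur protein, fell from 310.4 and 302.1 normalized CPM to 230.5 and 209.3 (log2 -0.48, adjusted p = 0.0440). *Uqcrb*, a ubiquinone-binding subunit named after its value was seen, fell by 0.41 on the log2 scale (adjusted p = 0.0421). The core proteins *Uqcrc1* and *Uqcrc2* had log2 fold changes of -0.59 (adjusted p = 0.104) and -0.27 (adjusted p = 0.0872), and *Uqcrc1* was counted at 9.23 ± 0.43 normalized CPM in WT where *Uqcrc2* was at 318.7 ± 0.7. For the small subunits *Uqcr11*, *Uqcr10* and *Uqcrh*, the last pair named after their values were seen, the log2 fold changes were 0.11, 0.08 and -0.01 (adjusted p of at least 0.399). The heme-binding partner of these proteins, *Cyc1*, is not among the names chosen and is given with the electron carriers.

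Complex IV, the cytochrome c oxidase, takes its catalytic centre from mitochondrial DNA, and its nuclear subunits surround it. Of 15 tested members 10 (66.7%) were lower without overlap and 1 was higher, against 31.5% and 33.3% of all tested genes. When only rows that need no re-sorting were fitted, 1 of the 15 was called, against 9.74% of the 1355 genes tested, and the median of the 15 was -0.26. *Cox4i1*, *Cox5a* and *Cox5b*, the nuclear subunits present in most tissues, had log2 fold changes of -0.33 (adjusted p = 0.0724), -0.18 (0.202) and -0.06 (0.638), and by library size the latter pair was above 0. By library size complex IV had 7 members (46.7%) lower and 3 higher without overlap, against 20% and 48%. *Cox6a1* (-0.42, adjusted p = 0.0419) and *Cox6b1* (-0.39, adjusted p = 0.0493) fell. *Cox8a*, the isoform of subunit 8 in most tissues, was at 224.4 ± 5.1 in WT and 227.1 ± 3.4 in MYC-KI (log2 0.02, adjusted p = 0.899), with overlapping samples.

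*Cox7a1*, the isoform of subunit 7a of heart, skeletal muscle and brown fat (chr7:30184144-30186078, plus strand of GRCm38), had the lowest log2 fold change of the 83 tested members. It had 10.7 and 8.14 normalized CPM in WT and 1.71 and 1.39 in MYC-KI, from 360 and 227 counts against 58 and 62. Both MYC-KI samples were far below WT. The log2 fold change was -2.61 ± 0.29 (SE, adjusted p = 0.0212), 6.09-fold lower, and lay between -2.79 and -2.39 when 1 sample was left out. *Cox7a2*, the isoform of other tissues, had a log2 fold change of -0.33 (adjusted p = 0.0656). The 1 member that rose was *Cox7a2l*, which is related to both but is not a subunit by name. It is known as a factor of the supercomplexes of complexes III and IV, a role that is disputed for the shortened form known from C57BL/6 mice. *Cox7a2l* had 149.0 and 150.4 in WT and 196.5 and 195.6 in MYC-KI, a log2 fold change of 0.39 ± 0.07 (adjusted p = 0.0446), and by library size it was 0.61 and past the fold threshold (adjusted p = 0.0167).

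Complex V, the ATP synthase, had 19 tested members and the highest summed level. Of these, 14 (73.7%) were lower and 1 was higher without overlap, against 31.5% and 33.3% of all tested genes. By library size 6 (31.6%) were lower and 7 higher, against 20% and 48%. Its catalytic subunit *Atp5b* had 2025 and 1985 normalized CPM in WT and 1549 and 1622 in MYC-KI (log2 -0.34, adjusted p = 0.0937). The other subunits of the catalytic head, *Atp5a1*, *Atp5c1*, *Atp5d* and *Atp5e*, had log2 fold changes of -0.26, -0.24, -0.07 and -0.15, and none passed the test. In all 5 the MYC-KI samples were below WT without overlap, while by library size *Atp5d* and *Atp5e* were above 0. Besides *Atp5g1*, the 1 member of complex V that fell was *Atp5h*, a stalk subunit named after its value was seen (-0.44, adjusted p = 0.0447). The lowest value belonged to the pseudogene *Atp5l2-ps* (-0.70, adjusted p = 0.336), at under 1 normalized CPM in each sample, and the highest to *Atp5g2* (0.45, adjusted p = 0.476).

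*Atp5g1*, *Atp5g2* and *Atp5g3* encode the same subunit c of the proton-driven ring with different import signals. *Atp5g1* (chr11:96068852-96075670, minus strand of GRCm38) had 109.1 and 107.2 normalized CPM in WT and 64.7 and 72.6 in MYC-KI. The groups did not overlap, and the log2 fold change of -0.65 ± 0.09 (SE, adjusted p = 0.0288) was -0.57 and not past the fold threshold without MYC-KI replicate 1, and -0.43 by library size (adjusted p = 0.0395). *Atp5g3* had 417.6 and 371.7 in WT and 338.9 and 314.4 in MYC-KI (log2 -0.27, adjusted p = 0.151). *Atp5g2* was at 1.61 to 3.11 with overlap.

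The promoters of the 3 called members are shown beside a search for motifs of factors known for this gene class. Each is the 250 bases before the RefSeq start on GRCm38.p6, 5′ to 3′ on the strand of the gene, in lower case, with matches in capitals: chr7:30183921-30184170 on the plus strand for *Cox7a1*, chr11:96075632-96075881 on the minus strand for *Atp5g1* and chr17:56717512-56717761 on the plus strand for *Ndufa11*. The capitals mark CACGTG, the E-box that MYC with its partner MAX binds, in *Atp5g1*, and the palindrome bound by NRF1 in *Ndufa11*. The window of *Cox7a1* held none of the motifs searched.
Cox7a1: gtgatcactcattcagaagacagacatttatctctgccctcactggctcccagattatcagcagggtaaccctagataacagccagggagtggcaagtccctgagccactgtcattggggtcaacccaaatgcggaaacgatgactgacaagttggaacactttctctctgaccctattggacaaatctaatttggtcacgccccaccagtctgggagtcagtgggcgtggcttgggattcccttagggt
Atp5g1: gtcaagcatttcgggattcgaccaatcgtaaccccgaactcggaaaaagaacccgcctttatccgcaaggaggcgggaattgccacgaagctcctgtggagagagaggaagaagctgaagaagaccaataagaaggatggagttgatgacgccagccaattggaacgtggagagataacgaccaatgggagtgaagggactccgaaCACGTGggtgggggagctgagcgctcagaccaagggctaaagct
Ndufa11: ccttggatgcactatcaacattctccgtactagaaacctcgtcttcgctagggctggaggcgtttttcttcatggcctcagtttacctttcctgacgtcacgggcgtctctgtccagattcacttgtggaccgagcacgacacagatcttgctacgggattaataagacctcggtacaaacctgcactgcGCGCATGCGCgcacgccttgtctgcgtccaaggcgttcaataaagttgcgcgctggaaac

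Over the 67 tested members with a RefSeq promoter (250 bases before and 50 after the start, both strands), the motifs were counted beside those of all 27025 genes with one. The 27025 were not limited to genes that passed the filter on low counts, as the members were. The shares thus compare sets chosen in different ways, and tested genes alone were not counted. The NRF1 palindrome, with the letters capitalized in *Ndufa11*, stood in 5 members (7.46%) and in 1.07% of all genes, and CCGGAAG, bound by GABPA, in 16 (23.9%) and in 9.93%. TCAAGGTCA, bound by the estrogen-related receptors, stood in 2 (2.99%), *Atp5g3* and *Sdhd*, and in 0.466% of all genes. CACGTG stood in 6 (8.96%) and in 8.09% of all genes, and 5 of the 6 are in complex V, *Atp5f1*, *Atp5g1*, *Atp5g3*, *Atp5l* and *Atp5sl*, among its 16 promoters (31.2%). The sixth was *Ndufv1*. The members with the NRF1 motif were *Atp5g2*, *Atp5k*, *Cox6a1*, *Ndufa11* and *Uqcrc1*. None of the promoters shown holds overlapping motifs, and a match of letters is a description of the sequence.

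Paralogs that replace each other were compared within each sample as shares of normalized CPM per kilobase of exon, which do not depend on the scaling between samples. How reads that match more than 1 paralog were counted is not given, so these are shares of the counts. *Cox7a1* made up 15.9% and 13.3% of *Cox7a1* and *Cox7a2* together in WT and 3.78% and 3.09% in MYC-KI. *Atp5g1* made up 10.3% and 11.3% of the *Atp5g* genes in WT and 7.76% and 9.19% in MYC-KI, and *Atp5g3* the bulk, 88.2% to 91.6%. *Cox4i2*, the lung isoform of subunit 4, made up 0.751% and 0.770% in WT and 0.433% and 0.336% in MYC-KI. *Cox7a1*, *Atp5g1* and *Cox4i2* each had a lower share in both MYC-KI samples than in both WT samples. The opposite held for *Atp5g2*, with 0.579% and 0.498% of the *Atp5g* genes in WT and 0.684% and 1.16% in MYC-KI, and for *Cox6b2*, a testis isoform, with 0.260% and 0.180% of its pair in WT and 0.276% and 0.407% in MYC-KI, neither of which passed the test as a gene. The fitted log2 fold change of *Cox4i2* was -1.32 ± 0.37 (adjusted p = 0.0867).

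The muscle isoforms of subunits 6a and 8 and *Ndufa4l2* followed 1 sample instead. *Cox6a2* made up 0.157% and 0.226% of its pair in WT, 0.0412% in MYC-KI replicate 1 and 1.38% in MYC-KI replicate 2. *Cox8b* made up 0.0225% and 0.0279% of its family in WT, 0 in MYC-KI replicate 1 and 0.647% in MYC-KI replicate 2, from 38 counts. *Ndufa4l2* made up 8.95% and 6.62% in WT, 6.50% in MYC-KI replicate 1 and 22.7% in MYC-KI replicate 2. In all 3 MYC-KI replicate 2 was the highest sample and MYC-KI replicate 1 the lowest. The log2 fold change of *Cox6a2*, the highest of complex IV, had an SE of 1.46 and did not pass the test (adjusted p = 0.521), from 15 and 18 counts in WT and 3 and 133 in MYC-KI, and turned to -2.57 without MYC-KI replicate 2. In 7 of 8 tested markers of skeletal muscle MYC-KI replicate 2 was likewise the highest and MYC-KI replicate 1 the lowest, with a summed level of 158.8 and 120.7 normalized CPM in WT, 40.7 in MYC-KI replicate 1 and 1337 in MYC-KI replicate 2, and *Myh2* at 0 in MYC-KI replicate 1. Their part in these values was not tested.

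**Figure D4:**
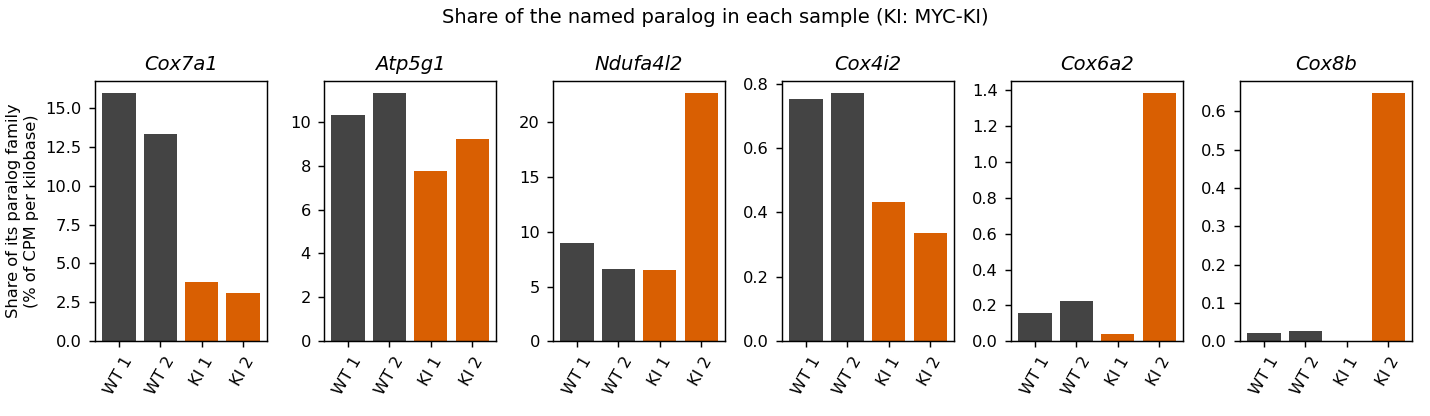
Share of the named paralog in its family, in percent of normalized CPM per kilobase of exon (y axis from 0, a separate scale per panel), 1 bar per sample. *Cox7a1*, *Atp5g1* and *Cox4i2* have lower shares in both MYC-KI samples, whereas *Ndufa4l2*, *Cox6a2* and *Cox8b* are highest in MYC-KI replicate 2 only.

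The rest of the pathway was read from lists of other genes. Of the 13 subunits encoded in mitochondrial DNA, 12 (92.3%) were lower without overlap, against 31.5% of all tested genes. Called lower were 2, *COX3* of complex IV (-0.88, adjusted p = 0.0288) and *ND2* of complex I (-0.67, adjusted p = 0.0329), against 5.08% of all tested genes. By library size 1 of the 13 was called lower. The median of the 13 was -0.47 (-0.25 by library size, with *ND3* above 0), and they summed to 49429 and 49379 normalized CPM in WT and to 37759 and 34204 in MYC-KI, 72.8% of WT. Among 14 electron carriers 3 were called lower and 0 higher by edgeR (3 higher at an unadjusted p under 0.05, and 2 called higher by DESeq2), with a median of -0.15. By library size the median turned to 0.08, and 0 were called lower and 2 higher. Those called lower with TMM factors were *Cycs*, cytochrome c itself (-0.77, adjusted p = 0.0212), and *Etfa* and *Etfdh* (-0.59 and -0.61, adjusted p = 0.0264 and 0.0244), which pass electrons from fatty acid oxidation to ubiquinone. *Cyc1*, the cytochrome c1 of complex III, had a log2 fold change of -0.14 (adjusted p = 0.321).

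Assembly factors build the complexes without remaining in them. Of 14 tested for complex I, 7 were higher and 3 lower without overlap, against 33.3% and 31.5% of all tested genes, and *Ndufaf6* was called higher (1.02, adjusted p = 0.0490). For complexes II, III, IV and V, with 4, 6, 20 and 4 tested genes, 0 were called in either direction by edgeR and 0 by DESeq2, and at an unadjusted p under 0.05 edgeR had 2 lower and 2 higher for complex IV, 1 higher for complex III, 2 higher for complex V and 0 for complex II. By library size 2 genes were called higher in the list for complex I and 1 in each of the lists for complexes III, IV and V. At an adjusted p under 0.05 without the fold threshold, *Lrpprc* of the complex IV list (0.50, 0.0358) and *Tmem70* of the complex V list (0.43, 0.0416) rose, both named after their values were seen. The medians were 0.10, -0.04, 0.17, 0.01 and 0.13 for the assembly of complexes I to V, and the one of complex II turned to 0.18 by library size. Of 13 genes of the outer membrane and protein import, 2 were called higher, *Tomm70a* (0.70, adjusted p = 0.0333) and *Tomm40* (0.68, adjusted p = 0.0447), and the median was 0.21. By library size 6 were called higher. None was called lower by edgeR or DESeq2 or was lower at an unadjusted p under 0.05.

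**Figure D5:**
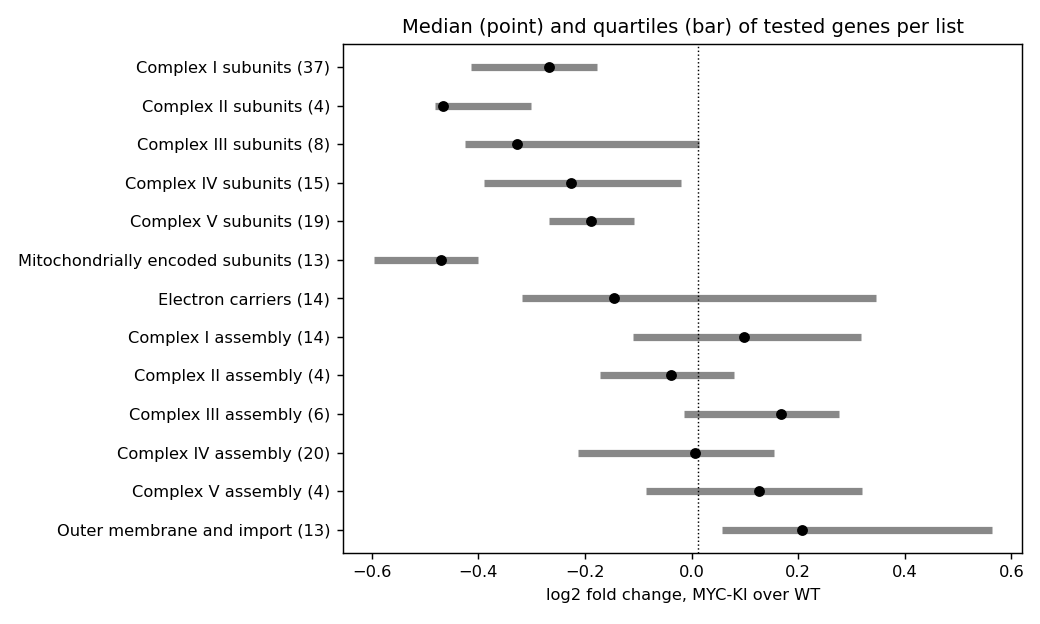
Median (point) and quartiles (bar) of the fitted log2 fold change, MYC-KI over WT, for the subunits of each complex and for the other lists of the pathway, with the number of tested genes in brackets and the median of all tested genes as a dotted line. The 5 complexes and the subunits of mitochondrial DNA lie left of the line and the import genes right of it; with library size in place of TMM factors the line itself moves to 0.23 and complex V, at 0.03, remains left of it.

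The regulators of mitochondrial genes went in both directions. Of 15, 2 were called lower and 2 higher, with a median of 0.12. *Esrrg*, an estrogen-related receptor that drives oxidative genes, had 176.6 and 198.3 normalized CPM in WT and 10.6 and 12.6 in MYC-KI (log2 -4.01 ± 0.14, adjusted p = 0.00635). *Esrrb*, another receptor of that family, fell by 4.40 on the log2 scale (adjusted p = 0.0198), while the third, *Esrra*, was at 0.04 (adjusted p = 0.871). *Pprc1*, a coactivator of the PGC-1 family, rose (0.65, adjusted p = 0.0392), as did *Tfb2m*, needed for transcription of mitochondrial DNA (0.59, adjusted p = 0.0498). The coactivators *Ppargc1a* and *Ppargc1b* had log2 fold changes of -1.02 (adjusted p = 0.0821) and 0.02 (adjusted p = 0.932). *Nrf1*, *Gabpa* and *Tfam* had 0.13, 0.00 and 0.33, and none passed the test.

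Cell type markers moved with the genotype beside all these values. The 12 tested parietal markers summed to 15484 and 15738 normalized CPM in WT and to 1485 and 1622 in MYC-KI, 9.95% of WT, and 11 were called lower, with a median of -3.81 and none at 0. Of 5 chief cell markers 3 were called lower (median -2.23), led by *Chia1* (-8.81, adjusted p = 0.00141) and *Pgc* (-6.00). Surface mucous markers were called lower in 4 of 5 (median -1.73), pancreatic acinar markers in 3 of 5 (-1.11) and leukocyte markers in 2 of 7 (-0.28), where the last list's median was -0.05 by library size. Proliferation genes were called higher in 3 of 8 (median 0.71) and were higher without overlap in 8 of 8, the latter against 33.3% of all tested genes. Of all tested genes 5.08% were called lower and 5.65% higher. By library size the counts called lower were 10 for parietal, 3 for surface mucous and 2 for acinar markers, and all 8 proliferation genes were called higher. With edgeR 0 markers were called for mucous neck cells (4 tested), smooth muscle (8), squamous epithelium (8) and skeletal muscle (8), with medians of 0.33, -0.62, 1.11 and 2.19. At an unadjusted p under 0.05, 1 mucous neck and 1 squamous marker were higher, DESeq2 called 1 squamous marker higher, and edgeR by library size called 1 mucous neck and 1 squamous marker higher.

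Adipocyte markers summed to 167.1 and 414.9 normalized CPM in WT and to 31.0 and 82.7 in MYC-KI. Of 7 tested, 6 were lower without overlap, against 31.5% of all tested genes, and 1, *Lep*, was called lower (-6.48, adjusted p = 0.0421). At an unadjusted p under 0.05, 6 were lower, and DESeq2 called 4 lower. *Adipoq*, *Lep* and *Retn* were at 0 in MYC-KI replicate 1, and the brown fat gene *Ucp1* was at 0 in all 4 samples. Smooth muscle markers summed to 8000 and 5090 in WT and to 2632 and 5575 in MYC-KI, with overlap. The part of any of these cell types in the members' values was not tested.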

How the data were processed

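Total RNA of stomach from 2 WT and 2 MYC-KI samples was sequenced, and the authors deposited raw read counts of 46095 gene symbols per sample in 1 table, without normalization. The submitters' processing notes name HISAT2 and mm10; the counting tool and its annotation are not given in the sources used here. The MYC-KI counts, in row order, were given to the symbols in character-code order, a step that uses no count value, and the table as deposited was kept as an alternative. Replicates differed by more than counting noise (chi-square per degree of freedom 22.7 in WT and 74.9 in MYC-KI).

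Tests on the counts used edgeR 4.0.16 (R 4.3.3) with TMM factors (filterByExpr, glmQLFit and glmQLFTest, no covariate, Benjamini-Hochberg adjustment over all 17643 tested genes). The SE of a log2 fold change is its size over the root of its F statistic. Calls needed an adjusted p below 0.05 and a change beyond 1.5-fold (log2 0.585). The common biological coefficient of variation was 0.295. At depths of 30260305 to 41463647 counts, a count of 0 allows up to 3 counts, for counting error only. The test was checked on simulated counts.

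The members and all lists were chosen with earlier results of these data known. Genes named are called members, core subunits, isoform pairs, the extremes of each complex, up to 3 called genes of each other list, chosen regulators and *Atp4a* and *Atp4b*; others were named after their values were seen. These include the markers given as 0, *Xist*, *Ddx3y*, *Cyc1*, *Tfb2m* and *Vmac*, and the genes listed by promoter motif. Exon lengths and positions are from GENCODE M21 (GRCm38), in which 90 members matched 1 gene, and promoters are from RefSeq on GRCm38.p6, matched for 67 of the 83 tested members. The annotation behind the counts may differ. Alternatives were the table as deposited, DESeq2 1.42.0 and its size factors, library size alone, other filters and fold thresholds, rows in the same place, a replicate block, and leaving out each sample. The values of 1 member are not reported here.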

Additional observations from a re-analysis of the deposited data

How the results depend on the processing

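Against 3 members called lower, the count was 44 in the table as deposited and 5 with DESeq2. It was 5 with the size factors of DESeq2 in edgeR, 1 by library size and 1 among rows in the same place. In these fits 84.1%, 17.2%, 10.5%, 17.1% and 9.74% of all tested genes were called in either direction, against 10.7% in the main fit. The count was 21 without a fold threshold, against 5.91% of all tested genes lower, and 1 above a log2 fold change of 1. Against 0 called higher, it was 23 as deposited, 1 by library size and 1 without a fold threshold, the last against 6.98% of all tested genes. Fits that left out 1 sample have 1 sample in a group, and their calls are not counted here. The replicate numbers do not pair the samples (correlation of deviations of same-numbered samples 0.067). With the replicate number as a block 0 members were called (31 lower and 1 higher at an unadjusted p under 0.05, against 14.6% and 14.7% of all genes), against 114 of all genes (0.646%), and the median of the members was -0.25. The adjusted p of *Cox7a1*, *Atp5g1* and *Ndufa11* with this block was 0.055, 0.070 and 0.070.

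The median of all members (-0.26) was -0.46 as deposited, -0.28 with the size factors of DESeq2, -0.041 by library size and -0.24 without a filter. By library size the medians of complexes I to V were -0.045, -0.24, -0.10, -0.0035 and 0.034, and as deposited those of I, II, III and V were -0.43, -6.80, -14.80 and 0.066. A median of ratios of mean CPM by total counts was also taken as deposited, with MYC-KI counts under 3 set to 3. It was -0.28, -6.66, -10.17 and -1.46 for I, II, III and V. It covered the 38, 4, 8 and 19 members with more than 3 counts in a WT sample. Of these, 1, 1, 8 and 1 had at most 3 counts in both MYC-KI samples. It thus differs from the fit in its members and scaling as well, and the fit tested 25 members of complex V. Complex V was at -0.21 with at least 10 counts in every sample and at -0.24 without pseudogenes and names that are not subunits. Leaving out 1 sample gave -0.28 to -0.24 over all members, and -0.31 to -0.25, -0.50 to -0.42, -0.33 to -0.30, -0.37 to -0.16 and -0.25 to -0.19 for complexes I to V.

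As deposited the log2 fold change had another sign in 23 of the 83 members, 17 of them with an adjusted p under 0.05 in either table. Among the genes named in the text, those with another sign that were called in either table were *Ndufs7* (0.77), *Ndufv2* (1.48), *Sdhd* (-16.00), *Atp5e* (1.12), *Atp5sl* (-3.76), *Uqcr10* (-14.58), *Uqcr11* (-14.06), *Lrpprc* (-0.61), *Tmem70* (-13.68), *Pprc1* (-4.92), *Tomm70a* (-10.96), *Tomm40* (-14.41), *Ppargc1b* (-14.42), *Nrf1* (-2.06) and *Tfam* (-2.34), where the MYC-KI counts belong to other names. The share of higher calls over all genes was 52.6% with TMM and 75.5% by library size. A change of the size of the members' median lies under the fold threshold whatever its p, and a p that missed its threshold does not show equal levels.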
